A study of Homo sapiens with 2 samples.

Results

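Binding of the transcription factor IRF1 was examined at 9 genes that set whether a cell dies by apoptosis or necroptosis, in NB4 cells, a human acute promyelocytic leukemia line with the PML-RARA fusion. BAK1, BCL2L11, BCL2L13, RIPK1, MLKL, TNFSF10 and FAS were counted as acting for death, and CFLAR and BIRC3 as acting for survival. RIPK1 can also pass signals to survival, so its side is a choice. All 9 genes were looked up by name in a list of 1986 IRF1 summits, 1-base positions within enriched regions. A summit belonged to a gene when the authors' annotation named it as nearest, at any distance. By this rule 9 summits belonged to 8 of the 9 genes, and TNFSF10 had none.

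The chromatin immunoprecipitation experiment held 1 library of cells given all-trans retinoic acid (ATRA) for 4 hours and 1 control library, for which the labels name the solvent DMSO. Both came from the same cell line, so the PML-RARA fusion was shared, and the summit list carries the name of the ATRA library. Data of the control cells were not analysed here, so no gain or loss under ATRA can be read from these summits. The background of the peak calling is not known: against control cells, a summit and its score would express enrichment over those cells, and against input DNA, binding in the treated cells. There are no replicates, and how many reads lie under each summit is unknown. A list of binding positions holds no expression of marker genes against which the labelled cell type could be checked.

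Apoptosis starts either at death receptors of the cell surface, which recruit caspase-8 through adaptor proteins, or at mitochondria, where BCL2 family proteins decide whether the outer membrane is opened. When caspase-8 is blocked, death receptor signalling can run through the kinase RIPK1 to MLKL, which ruptures the plasma membrane, a route called necroptosis. IRF1 is induced by interferon and by retinoic acid, and binds DNA through repeats of the letters GAAA. TNFSF10, which encodes the death ligand TRAIL, is known from earlier work as a gene that retinoic acid induces in this leukemia.

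Promoter sequences of 2 genes are shown first because they hold the paired motif searched for, GAAA followed after any 2 bases by GAAA, on either strand. A summit lay in the RIPK1 window and none in the TNFSF10 window. The sequences are the 250 bases before an annotated start, from RefSeq on GRCh38.p14 (the assembly that hg38 denotes), written 5′ to 3′ on the strand of the gene. Capitals mark the motif, which in both cases is on the opposite strand and so reads as copies of TTTC. The RIPK1 stretch is chr6:3068128-3068377 on the plus strand, and the TNFSF10 stretch is chr3:172523431-172523680 on the minus strand.

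RIPK1: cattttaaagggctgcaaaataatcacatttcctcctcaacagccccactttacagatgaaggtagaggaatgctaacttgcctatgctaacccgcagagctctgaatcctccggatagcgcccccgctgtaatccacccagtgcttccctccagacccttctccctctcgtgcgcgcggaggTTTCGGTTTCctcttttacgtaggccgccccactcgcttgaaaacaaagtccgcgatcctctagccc

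TNFSF10: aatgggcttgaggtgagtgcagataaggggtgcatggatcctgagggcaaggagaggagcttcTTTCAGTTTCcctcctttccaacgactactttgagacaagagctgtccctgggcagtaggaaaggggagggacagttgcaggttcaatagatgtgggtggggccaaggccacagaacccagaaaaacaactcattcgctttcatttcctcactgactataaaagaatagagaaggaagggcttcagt

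The RIPK1 motif, at positions 3068311 to 3068320, began 67 bp upstream of that start and 26 bp beyond the weaker of the RIPK1 summits. The TNFSF10 motif, at positions 172523608 to 172523617, began 187 bp upstream of the start, and no summit of the list lay within 100 kb of the gene. Summits of BCL2L11 and BCL2L13 lay in windows without the paired motif, and the bases before their starts are shown for comparison, with the summit and 5 bases on each side of it in capitals. The BCL2L11 stretch is chr2:111120664-111120913, and the BCL2L13 stretch is chr22:17706531-17706657, both on the plus strand. The BCL2L13 stretch holds only 127 bases and precedes the start of a shorter transcript, the start that the authors used. The RefSeq start of that window lies further on, at 17706781.

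BCL2L11: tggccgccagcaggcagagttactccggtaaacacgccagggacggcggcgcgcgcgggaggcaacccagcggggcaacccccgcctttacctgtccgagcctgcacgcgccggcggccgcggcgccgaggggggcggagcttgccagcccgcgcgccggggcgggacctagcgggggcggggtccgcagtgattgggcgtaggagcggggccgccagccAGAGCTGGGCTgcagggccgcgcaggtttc

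BCL2L13: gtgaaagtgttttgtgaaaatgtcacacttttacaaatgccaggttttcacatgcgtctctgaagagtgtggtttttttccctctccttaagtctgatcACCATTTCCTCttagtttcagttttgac

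Across the genome such windows held the motif more often with a summit inside than without one. RefSeq windows of 300 bases, from 250 before to 50 after a start, numbered 35116. Of the 302 windows with a summit inside, 117 held the motif (38.7%, 95% Wilson interval 33.4 to 44.3), against 1138 of the 34814 windows without one (3.27%, 3.09 to 3.46). Over all windows the share was 3.57%. Windows of alternative starts overlap, so they are not independent, and the intervals cover counting error only. The reverse share was low: 117 of the 1255 windows with the motif held a summit (9.32%), and the TNFSF10 window was among the remainder. The 9 genes had 18 windows, of which 3 held the motif, 2 overlapping windows of RIPK1 and the 1 of TNFSF10.

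**Figure D1:**
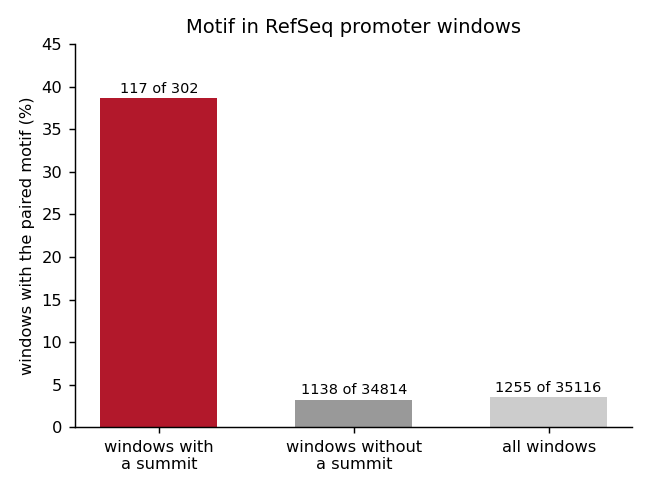
Share of RefSeq promoter windows (300 bases) that hold the paired motif on either strand, in percent, with the number of windows above each bar. Windows with an IRF1 summit inside stood at 38.7%, against 3.27% for windows without one and 3.57% for all windows.

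Being the nearest gene of a summit at any distance applied to 8 of the 9 genes, against 6.38% of 19974 protein-coding genes. Within 10 kb of a transcription start site (TSS) it applied to 7, against 3.36%, and within 1 kb to 4, against 2.03%. A summit above the median score of the list belonged to 4 of the 9, against 3.53%. The genes were picked with the list already known, so these counts describe that choice. Of the 9 summits the authors placed 3 in introns, 3 in intergenic sequence, 2 in promoters and 1 in a 5′ UTR.

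**Figure D2:**
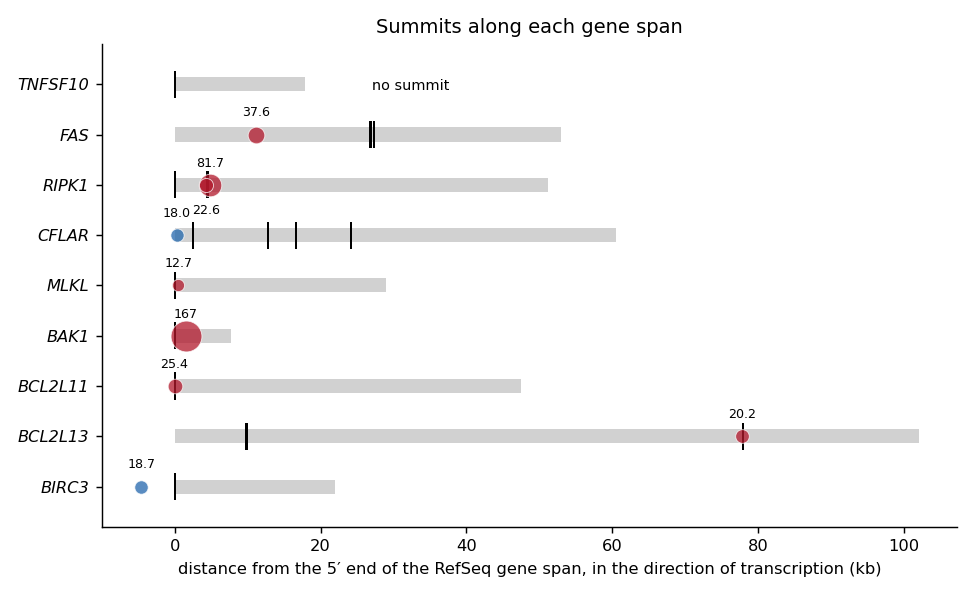
Summits (circles, area rising with the authors' peak score, score printed beside) along the RefSeq span of each gene (grey bar) and its starts in the RefSeq promoter table (black ticks), in kb in the direction of transcription. Red marks genes that act for death and blue those that act for survival. The RIPK1 pair sits at internal starts, the BIRC3 summit (18.7) lies before the gene, and TNFSF10 has none.

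TNFSF10, the death ligand, was the only one of the 9 genes without a row. Its span is 172505508 to 172523430 on chromosome 3, and the nearest summit lay 371 kb away, at position 172134544, with FNDC3B as the authors' nearest gene and a score of 18.7. If control cells served as the background of the calling, a site bound alike in both would be missing, so the absence of a row does not show absence of IRF1.

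FAS, the death receptor that binds FAS ligand, had 1 summit at chromosome 10 position 88975149 with a score of 37.6, higher than 69.2% of the list. It lay 15382 bp upstream of the TSS that the authors used. The annotation placed it in intron 1 of 8 of a transcript of ACTA2, the smooth muscle actin gene. The RefSeq spans of ACTA2 and FAS (88964050 to 89017059) both cover this base, so the summit has 2 possible genes, and FAS is only the one with the nearer start. None of the 3 FAS windows in the promoter table held a summit or the motif.

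RIPK1, the kinase that passes death receptor signals to survival, caspase-8 or necroptosis, was the single gene of the 9 with more than 1 summit. Among protein-coding genes 141 were the nearest gene of 2 or more (0.706%). The stronger RIPK1 summit, at chromosome 6 position 3068853, scored 81.7 and stood above 87.8% of the list. The weaker, at position 3068285, scored 22.6, and the pair lay 568 bp apart. The authors called both intergenic, 7971 and 8539 bp upstream of the TSS. Current RefSeq, in contrast, starts RIPK1 at 3063967 and gives it 2 further starts at 3068378 and 3068494. Measured to these, the stronger summit lay 359 bp downstream and the weaker 93 bp upstream of the nearest start. The detailed annotation, which gives a single label per summit, named a CpG island at the stronger summit, as at 6.09% of all summits. Any summit in such an island under another label is not counted in that share. The motif shown above lies beside the weaker one, and the bases around the stronger one are outside the promoter windows and were not searched.

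CFLAR encodes c-FLIP, which holds caspase-8 inactive at death receptors. Its summit at chromosome 2 position 201116411 scored 18.0, above 26.0% of the list, and lay 257 bp downstream of the TSS in exon 1 of 9, in the 5′ UTR. The span of the locus LOC105373836 covers the same base. The RefSeq span of CFLAR begins at 201116164, 247 bp before the summit. No start there is among the 4 CFLAR starts of the promoter table, which is not complete, and the nearest of these lay 2305 bp from the summit. The next summit, 56.7 kb beyond the CFLAR span, had CASP8 as nearest gene, lay 32 bp upstream of its TSS and scored 48.6.

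MLKL, the pore-forming effector of necroptosis, had the lowest score of the 9 summits, 12.7 at chromosome 16 position 74700349, above 5.34% of the list. It lay in intron 1 of 5, 799 bp downstream of the TSS used by the authors and 513 bp from the RefSeq start, in a CpG island. The score exceeded that of few summits, and 10 summits of the list carried exactly this value.

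BAK1, which with BAX opens the mitochondrial outer membrane, had the strongest summit of the 9. Its score was 167 at chromosome 6 position 33578739, rank 43 of 1986 summits, and as a gene it ranked 36 of the 1275 protein-coding genes with a summit. Only 0.18% of protein-coding genes had a summit at least that high. The summit was not at the promoter but in intron 1 of 5, 1554 bp downstream of the TSS. The next highest of the 9 summits was that of RIPK1 at 81.7, and scores are compared by order alone, since their scale is not stated.

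BCL2L11 encodes BIM, a BH3-only protein that neutralises pro-survival BCL2 proteins. Its promoter summit at chromosome 2 position 111120889 lay 25 bp upstream of the TSS and scored 25.4, above 50.8% of the list. The surrounding window was the richest in G and C of the 18, at 74.7%, against a median of 58.7% over all windows. BCL2L13, also called BCL-RAMBO, is a mitochondrial outer membrane protein of the same family, known both as pro-apoptotic and as a receptor for removal of mitochondria. Its summit at chromosome 22 position 17706635 scored 20.2 and was also classed as promoter, 23 bp upstream of the TSS. That TSS is internal: the RefSeq span of the gene begins at 17628877, and the first starts in the promoter table are at 17638584 and 17638757, 68.1 and 67.9 kb before the summit. A further start in the table, at 17706781, lies 146 bp beyond the summit. The other pore formers and BH3-only genes of the list, BAX, BOK, BID, BAD, BBC3, PMAIP1, BMF, BIK and HRK among them, were the nearest gene of no summit.

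BIRC3, or cIAP2, is a ubiquitin ligase that keeps RIPK1 in survival signalling. Its summit at chromosome 11 position 102312871 was intergenic, 4579 bp upstream of the TSS, and scored 18.7, above 29.7% of the list. Exactly this value was given to 18 summits, so its place among them is not resolved. In the RefSeq promoter table the start nearest to the summit was that of LOC124902739, 4372 bp away, against 4613 bp for that of BIRC3.

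Set side by side, 6 of the 7 genes counted as acting for death and both counted as acting for survival had a summit. The share over all protein-coding genes was 6.38%. RIPK1, counted for death although it also passes signals to survival, gave 2 of the 7 death summits, 1 of them scoring 81.7. Scores of the 7 summits at death genes ran from 12.7 to 167 with a median of 25.4, and the pair at survival genes scored 18.0 and 18.7. All 4 summits above the median of the list (25.2) belonged to genes acting for death, BAK1, RIPK1, FAS and BCL2L11, and the other 3 summits of such genes lay below it. Of the 4, BCL2L11 stood only just above the median, higher than 50.8% of the list, and the FAS summit also lies in an intron of ACTA2. The ranges overlap, since MLKL at 12.7 was below both survival genes. No test was made, because the genes were chosen with their values known and only 2 act for survival.

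**Figure D3:**
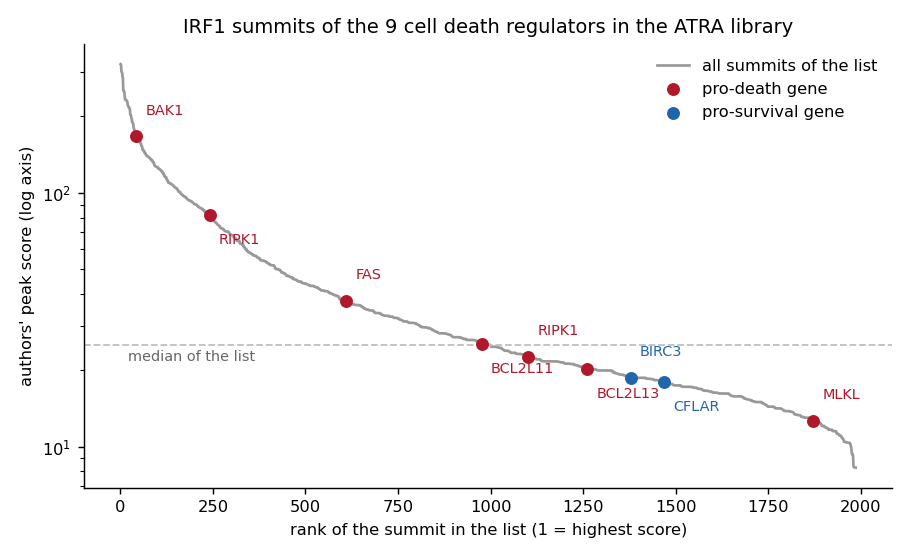
Authors' peak score (log axis) against rank for all 1986 summits (grey line), with summits of genes acting for death in red and for survival in blue. BAK1 (167) and RIPK1 (81.7) stand in the steep upper part, and below the dashed median of 25.2 lie CFLAR (18.0) and BIRC3 (18.7) together with the weaker RIPK1 summit (22.6), BCL2L13 (20.2) and MLKL (12.7).

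Distances to the starts of the RefSeq promoter table differed from those of the authors for 8 of the 9 summits, and crossed 1 kb for RIPK1 and CFLAR alone. The BCL2L13 summit lay 146 bp upstream in place of 23, and the MLKL summit 513 bp downstream in place of 799. Within 1 kb of a start were BCL2L11, BCL2L13, CFLAR and MLKL by the authors' distances, and BCL2L11, BCL2L13, MLKL and RIPK1 by the RefSeq promoter table, 3 of them in common. Such changes were rare in the list. Of 808 summits that the authors placed over 1 kb from a protein-coding gene with an entry, 21 lay within 1 kb of a RefSeq start of the same gene (2.60%), and both RIPK1 summits were among them. In the other direction 14 of 366 changed (3.83%), the CFLAR summit among them, although it lies 247 bp inside the start of the RefSeq gene span.

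**Figure D4:**
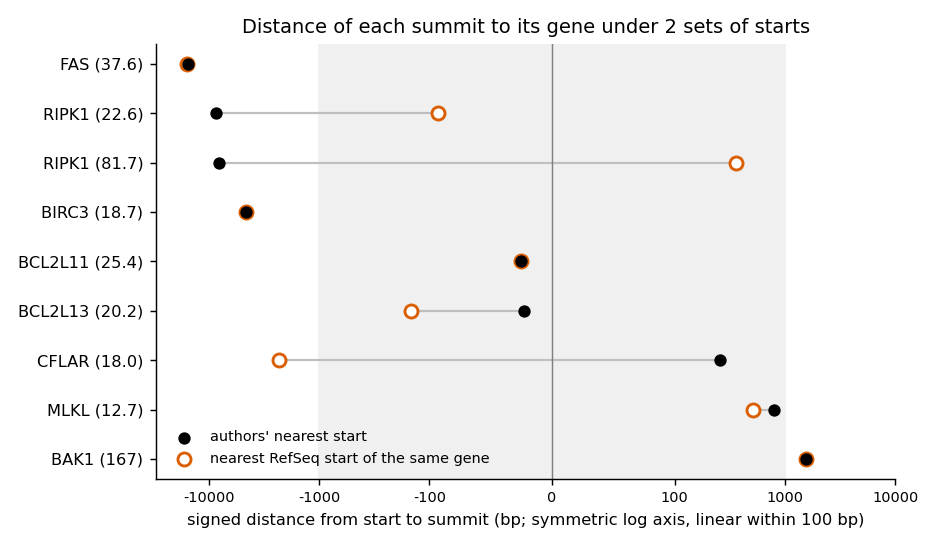
Signed distance in bp (symmetric log axis, linear within 100 bp, negative upstream) from the start to each of the 9 summits, labelled with gene and score. Filled circles use the authors' nearest start and open circles the nearest start of the same gene in the RefSeq promoter table, and grey shading spans 1 kb on each side. The RIPK1 summits move into the shaded zone (359 and -93 bp) and the CFLAR summit moves out (-2305 bp).

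The wider pathway was described with 59 genes in 8 lists by role, caspases left out, the 9 genes included. The nearest-gene rule took 10 of the 59, and without the 9 genes it took 2 of 50, TRAF2 and FASLG, which is 4.00% against the 6.38% of all protein-coding genes. Within 10 kb of a TSS only TRAF2 was left among the 50 (2.00% against 3.36%). The 9 genes were chosen with the list known and 8 of them had a summit, so taking them out lowered both shares. CASP8, a caspase and so left out, also had a summit (48.6). The shares of the 50 therefore cannot show whether the wider pathway is rich or poor in summits. TRAF2 is an adaptor that binds BIRC2 and BIRC3 to the TNF receptor complex. Its summit at chromosome 9 position 136882648 scored 44.4, 3865 bp upstream of the TSS and inside the current RefSeq span. The FASLG summit, 87491 bp from the TSS of the gene for FAS ligand, scored 36.7.

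A summit inside the gene span extended by 10 kb was found for 13 of the 59 genes, against 7.45% of protein-coding genes, and for 5 of the 50 outside the chosen 9. In 4 of these 5 the authors named another gene. The strongest lay in intron 2 of 2 of BCL2L1, at chromosome 20 position 31675098, with a score of 85.1. BCL2L1 encodes BCL-XL, the pro-survival protein that restrains BAK1, but the authors' nearest TSS was that of COX4I2, 37210 bp away. Its score was higher than that of every summit of the 9 genes except BAK1. The other 3 lay outside the gene, near TNF (24.5, named for LST1), TNFSF12 (17.1, named for SENP3) and TNFRSF10A (23.9, named for a non-coding gene). Neither the apoptosome genes APAF1 and CYCS nor the necroptosis genes RIPK3, ZBP1, TICAM1 and PGAM5 had a summit by either rule. The pro-survival genes BCL2, MCL1, BCL2L2, BCL2A1 and BCL2L10 had none either.

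**Figure D5:**
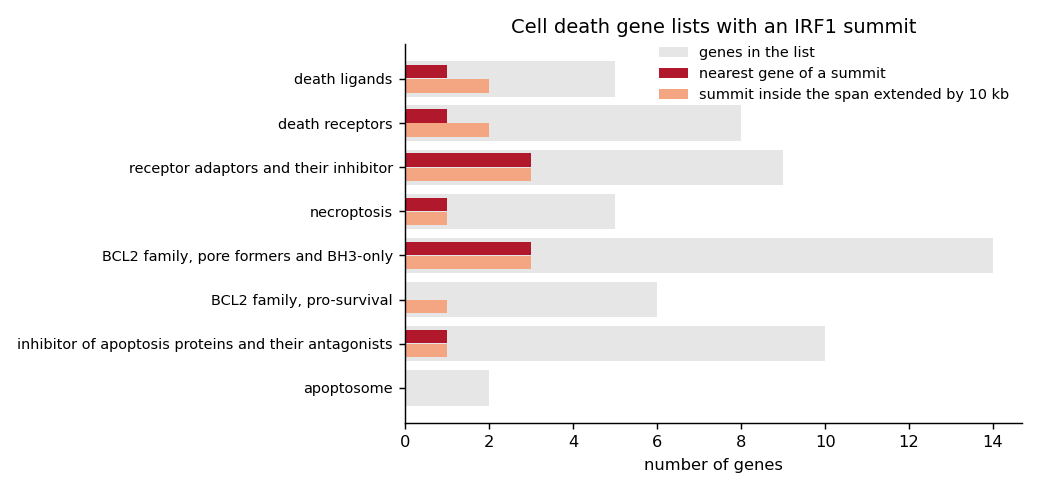
Number of genes in each of 8 cell death lists (grey), of which the nearest gene of an IRF1 summit (red) and with a summit inside the gene span extended by 10 kb (orange). The BCL2 pro-survival list has none by the nearest gene and 1 by the span, BCL2L1.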

How the data were processed

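IRF1 chromatin immunoprecipitation was sequenced in 1 ATRA and 1 control library of NB4 cells. Per the submitters' processing notes, the tools were Bowtie2 2.2.9 and MACS 1.4.2 and the build hg38. HOMER's annotatePeaks.pl then annotated the summits of the ATRA library, per the file headers. The peak score is the authors' deposited value, of unstated scale, and is used here only to describe and order summits within the list. Not given in the sources used here are the peak-calling background, its threshold and the treatment of duplicate reads.

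Genes were matched by Entrez identifier to RefSeq (GRCh38.p14), which held the nearest gene of 1977 of 1986 summits. Gene counts used 19974 protein-coding genes of the autosomes and X. The motif was searched in RefSeq promoter windows, since no genome sequence was used, so that 3 of the 9 summits could be searched, within 100 bp and inside the windows. The 9 genes and the 8 lists were chosen with earlier results of these data known. Named genes were the 9, listed genes nearest to a summit within 10 kb or with one inside the span extended by 10 kb, and the gene the authors name there. FASLG, ACTA2, FNDC3B, CASP8, LOC105373836, LOC124902739 and listed genes without a summit were named after their values were seen. No pattern across samples exists in 1 library, so no genes of like pattern are named. Motif search and gene matching were tested on simulated data. The simulated sequences held only C and G outside planted motifs, so the rate of false motif matches was not tested. Computations used Python 3.11.15, pandas 2.3.3, numpy 2.4.6 and scipy 1.17.1.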

Additional observations from a re-analysis of the deposited data

How the results depend on the processing

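No paired analysis was possible because the summit list comes from 1 library, and for the same reason no replicate could be left out. Merging summits under 200 bp apart changed none of the 6 counts it was applied to. Limiting the distance to 10 kb left 7 genes (against 3.36% of protein-coding genes), with FAS lost, and 8 summits. At 1 kb, 4 genes and 4 summits remained, 3 genes acting for death and 1 for survival, against 2.03% of protein-coding genes. The 4 of the 59 pathway genes left at 1 kb were these same genes, with 0 of the other 50. Among the 989 summits above the median score were 4 summits of 4 of the genes, all 4 acting for death and 0 for survival, and 6 of the 59 pathway genes. Over all protein-coding genes the share above the median score was 3.53%. The paired motif was found at 1 of the 3 searchable summits, RIPK1, also with 50 or 150 bp on each side. Among the 989 higher summits BCL2L11 was the only summit of the 9 genes that could be searched, and it had none (0), against 59.4% of the 128 searchable summits in that part of the list. The motif was found at 0 with 3 copies of GAAA and at 2, RIPK1 and BCL2L13, with 1 mismatch allowed. That looser motif was in 62.0% of the 255 searchable summits of the list, against 36.5% for the exact pair and 3.92% for 3 copies. Measuring to RefSeq promoter starts, an alternative chosen after seeing the data, gave 4 genes within 1 kb, as the authors' distances did, with RIPK1 in place of CFLAR. Depth per summit is unknown, and the scores come without an estimate of error.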
